A study of Mus musculus with 15 samples.

Results

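Trimethylation of histone H3 at lysine 36 (H3K36me3) was compared between bone marrow-derived macrophages (BMDMs) with and without a conditional knockout of histone H3.3. The comparison held the 2 WT and 2 cKO H3K36me3 libraries, 4 of the 15 samples of the series, and was made gene by gene over the 21755 protein-coding genes of chromosomes 1 to 19 and X. For each gene and each library, the percent of the gene body that lay inside called H3K36me3 regions was computed, so that a shortened stretch counted as well as a missing one. Of these genes, 11156 carried a region in at least 1 library and 9281, with a mean coverage of at least 5% over the 4 libraries, were tested.

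The study profiled chromatin by CUT&RUN, which sequences the DNA that an antibody-tethered nuclease cuts free around its target. WT cells carried floxed alleles of H3f3a and H3f3b, which both encode H3.3, and no Cre. cKO cells carried the same alleles and LysM cre/cre, a Cre at Lyz2 that is active in the myeloid lineage, so the controls lacked both the deletion and the Cre. The mice were 8 to 10 weeks old, of either sex and on a C57BL/6 background, and their marrow was grown for 6 to 8 days in medium conditioned by L929 cells. The study described the deletion of H3f3b as variable, from partial to complete. The labels call the libraries of a group biological replicates and do not say which animals they came from, so each test below measures the spread between these libraries.

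H3K36me3 is laid down by Setd2, a methyltransferase that travels with elongating RNA polymerase II. The mark therefore lies over the bodies of transcribed genes, low at the start and rising toward the 3′ end, where it is known to recruit factors that restrain cryptic initiation, guide splicing and aid DNA repair. Nsd1, Nsd2, Nsd3 and Ash1l place lower methylation states on the same lysine, while enzymes of the Kdm2 and Kdm4 families remove methyl groups from it. H3.3 is the replication-independent H3 variant that is deposited at transcribed genes by chaperones such as HIRA.

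The comparison asked where this mark differed once H3.3 was deleted. Both cKO libraries lay at least 10 percentage points below both WT libraries at 12 of 27 genes of cholesterol synthesis and uptake and at 11 of 32 genes of fatty acid and glycerolipid synthesis, as 13.1% of all genes tested did. They lay as far above WT at 26 of 73 interferon-stimulated genes, as 3.18% of all genes tested did. Genes with such a gap between all 4 libraries are called separated here. By limma on the covered percent (Benjamini-Hochberg adjusted p under 0.05), 154 genes fell and 61 rose, which was 1.66% and 0.657% of the genes tested. This test uses the spread within each pair, while the count of separated genes uses only the gap. There were 1220 genes separated lower (13.1%) and 295 separated higher (3.18%), and all genes that passed limma were among them. Of the genes that passed limma, 73 of the 154 lower ones had no region in either cKO library and 42 of the 61 higher ones had none in either WT library. The limma calls depended on the setting: scaling each library by its median ratio left none, and quantile normalization turned the split to 110 lower and 235 higher.

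The cKO pair was uneven. The 4 libraries held 14027132 to 23782914 tags and 43527 to 49878 regions, but only 19.3% of the tags of cKO replicate 1 lay in regions, against 46.5% in cKO replicate 2 and 47.1 and 50.2% in WT. Regions covered 163 and 170 Mb in the WT libraries, 90.6 Mb in cKO replicate 1 and 163 Mb in cKO replicate 2. Over the genes tested, the median coverage was 48.4 and 51.0% in WT, 23.0% in cKO replicate 1 and 51.6% in cKO replicate 2. cKO replicate 1 thus stood apart from the other 3 libraries, and the coverage of the cKO pair overlapped that of WT. Mean coverage averaged 48.6% ± 1.51 over the WT pair and 39.5% ± 14.6 over the cKO pair (SD, n = 2 per genotype), with a two-sided exact permutation p of 1, where 0.333 is the smallest that 2 against 2 libraries can give. The median gene lay 9.34 points lower in cKO (-9.34), which was -18.3 points for cKO replicate 1 and 0.242 for cKO replicate 2, both against the WT mean. Values are therefore given per library, and lists of at least 10 genes tested also with cKO replicate 2 alone. With that library alone, 1238 genes (13.3%) lay at least 10 points below both WT libraries and 1468 (15.8%) at least 10 points above them. Every separated gene meets this rule by definition. A count with cKO replicate 2 alone therefore cannot be smaller than the count of separated genes, and is no independent check of it. Every such count below stands beside these shares of 13.3% below and 15.8% above WT. With cKO replicate 1 left out limma passed 0 genes, with 1085 lower and 1359 higher at an unadjusted p under 0.05.

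**Figure D1:**
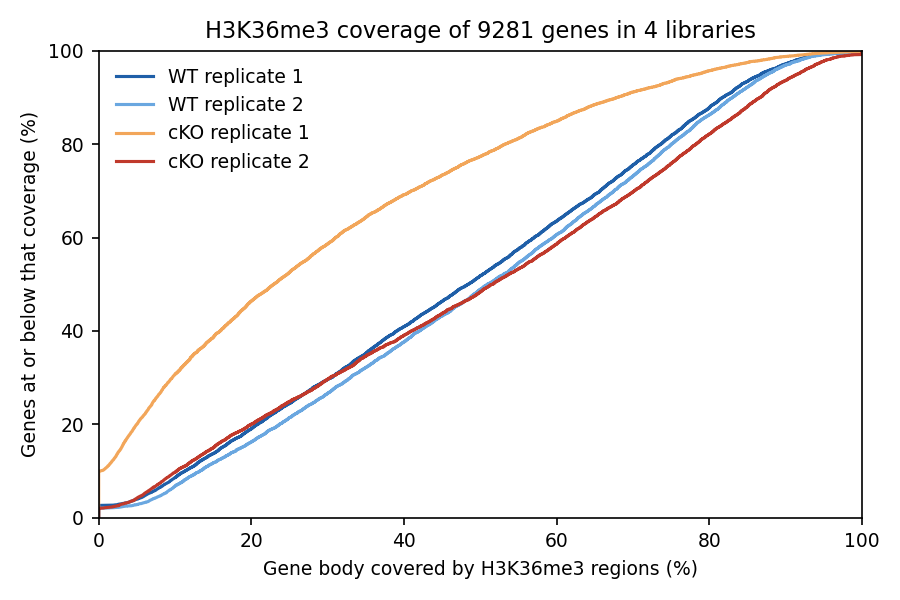
Cumulative share of the 9281 genes tested (vertical axis, %) by the percent of the gene body covered by H3K36me3 regions (horizontal axis), 1 line per library. The lines of both WT libraries and of cKO replicate 2 run close together with medians of 48.4 to 51.6%, and that of cKO replicate 1 lies above them with a median of 23.0%.

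The targeted genes were examined next. H3f3a (chromosome 1, 180800832 to 180813943, mm10, minus strand) was covered over 72.3 and 77.8% of its body in WT and 67.9 and 73.0% in cKO, and the groups overlapped. H3f3b (chromosome 11, 116021912 to 116027962, minus strand) was covered over 10.7 and 14.2% in WT and over 39.6 and 33.6% in cKO, so that both cKO libraries lay above WT (limma adjusted p = 0.278). The region lists did not show the deletion, and WT and cKO refer throughout to libraries as labelled. Lyz2, which carries the Cre and encodes lysozyme, was covered over 66.1 and 64.3% in WT and 78.1 and 100% in cKO (limma adjusted p = 0.343).

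Most markers placed the libraries with macrophages. Of 31 macrophage genes, 29 were tested, with a median coverage of 65.7 and 67.5% in WT and 64.8 and 79.4% in cKO. Of 14 neutrophil markers only Csf3r and Mmp8 were tested. Csf3r was covered as widely as the macrophage genes, over 67.8 and 79.2% in WT and 57.2 and 76.2% in cKO. Mmp8 was covered over 6.63 and 20.0% in WT and 0% in both cKO libraries. The granule genes Elane, Mpo, Ltf, S100a8 and S100a9 were without a region throughout the 4 libraries. Of 10 T and NK cell markers only Klrb1c was tested, and no marker of dendritic cells, B cells, mast cells, erythroid cells, fibroblasts or neurons reached the coverage minimum.

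Genes of cholesterol synthesis and uptake had the lowest median difference of the 17 pathway lists. Of 27 tested, 12 were separated lower and 1 higher (44.4 and 3.70%), and 2 passed limma, both lower. The median difference was -20.8 points against -9.34 over all genes, and it was -31.1 and -11.6 points for the cKO replicates taken singly. With cKO replicate 2 alone, 12 of the 27 lay below WT and 2 above. The order of the pathway from acetyl-CoA runs from Hmgcs1 to the farnesyl units made by Fdps, on to squalene (Fdft1, Sqle), lanosterol (Lss, Cyp51) and cholesterol (Hsd17b7, Sc5d, Dhcr7), and members of every one of these steps lay among the separated genes.

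Hsd17b7 (chromosome 1, 169949535 to 169969241, minus strand), an enzyme of the sterol branch, was covered over 31.2 and 49.3% in WT and had no region in either cKO library (difference -40.2 ± 9.13, SE, limma adjusted p = 0.0233). Other members of the pathway were shortened rather than emptied, and did not pass limma. Lss, the enzyme that closes the sterol rings, was covered over 76.2 and 80.9% in WT and 16.8 and 47.5% in cKO (limma adjusted p = 0.185). Its longest stretch measured 12 and 11.3 kb in WT and 1.12 and 4.82 kb in cKO. Fdps was covered over 68.8 and 63.7% in WT and 0 and 36.4% in cKO (limma adjusted p = 0.131), although 89.7% of its body lies inside other coding genes, whose mark cannot be told apart from its own. In Lss and Fdps both cKO libraries lay below both WT libraries, as their choice among the separated genes requires, with cKO replicate 1 the lowest. Srebf2, the transcription factor that drives the pathway, was covered over 61.2 and 62.0% in WT and 32.0 and 60.2% in cKO, and was not separated. The member on the other side was Npc2, which exports cholesterol from lysosomes and was covered over 58.0 and 68.3% in WT and 91.6 and 93.7% in cKO (limma adjusted p = 0.176).

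Genes of fatty acid and glycerolipid synthesis leaned the same way. Of 32 genes tested, 11 were separated lower and 1 higher (34.4 and 3.12%), 3 fell by limma and 0 rose, and the median difference was -16.2 points. With cKO replicate 2 alone 11 lay below WT and 2 above, with a median of -5.02. Quantile normalization gave medians of -4.94 for these genes and -14.1 for cholesterol synthesis, beside -0.29 for all genes.

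Scd2 (chromosome 19, 44293674 to 44306864, plus strand), a stearoyl-CoA desaturase, was covered over 78.4 and 82.6% in WT and 5.25 and 23.2% in cKO (difference -66.3 ± 16.4, SE, limma adjusted p = 0.0319). A stretch of 9.70 to 10.9 kb that reached the end of the gene in WT was replaced by pieces of at most 0.692 and 1.42 kb. Fads2 (chromosome 19, 10062765 to 10101746, minus strand), a desaturase of polyunsaturated fatty acids, was covered over 36.6 and 48.7% in WT and had no region in either cKO library (limma adjusted p = 0.0219). Its neighbour on the chromosome, Fads3, was covered over 28.1 and 29.6% in WT and 0 and 6.08% in cKO (limma adjusted p = 0.0514). Lpin1 (chromosome 12, 16535669 to 16610966, minus strand), a phosphatidate phosphatase of triglyceride synthesis, was covered over 55.5 and 55.1% in WT and 2.0 and 13.2% in cKO (difference -47.7 ± 12.7, SE, limma adjusted p = 0.0436). The WT libraries carried 41.8 and 41.5 kb of the mark over Lpin1, with the longest stretch (18.7 and 19 kb) near the 3′ end, and the cKO libraries 1.5 and 9.95 kb. The member separated higher was Lipa, the acid lipase that breaks lipids down in lysosomes, covered over 63.1 and 78.5% in WT and 97.3 and 97.7% in cKO (limma adjusted p = 0.108).

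Among genes of lipid uptake and efflux, 4 of 14 tested were separated lower (28.6%, beside 13.1% of all genes tested) and none higher, and 2 fell by limma. Both were fatty acid binding proteins. Fabp4 was covered over 34.4 and 18% in WT and 0% in both cKO libraries (limma adjusted p = 0.0317), and Fabp5 over 68.7 and 59.5% in WT and 0 and 21.5% in cKO (limma adjusted p = 0.0479). Abcg1, which exports cholesterol to lipoproteins, was covered over 63.8 and 65.5% in WT and 33.5 and 47.3% in cKO (limma adjusted p = 0.517). By contrast Lpl was covered over 88.9 and 88.7% in WT and 91.6 and 94.7% in cKO, and Apoe over 75.1 and 73.9% in WT and 72.4 and 73.4% in cKO. With cKO replicate 2 alone, 4 of the 14 lay below WT and 4 above.

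Interferon-stimulated genes showed the opposite picture. Of 73 tested, 26 were separated higher (35.6%) and 0 lower, 8 rose by limma and 0 fell, and the median difference was 11.3 points where all genes had -9.34. The median was 1.96 points for cKO replicate 1 and 20.6 for cKO replicate 2, and with cKO replicate 2 alone 48 of the 73 lay above WT and 0 below. The median stayed positive in the 12 alternatives under which it was recomputed, from 1.96 to 32.3 points.

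Oasl1 (chromosome 5, 114923240 to 114937915, plus strand), a member of the oligoadenylate synthetase family that is induced by interferon, had no region in either WT library and was covered over 80.6 and 85.6% in cKO (difference 83.1 ± 15.1, SE, limma adjusted p = 0.00884). The mark ran without a gap for 12.6 kb to the end of the gene in cKO replicate 2. Ifi44 (chromosome 3, 151730922 to 151749960, minus strand) also had no region in WT and was covered over 73.1 and 94.2% in cKO (limma adjusted p = 0.00945), with a stretch of 17.9 kb in cKO replicate 2. Ifi213 and Ifi206, of the IFI200 family of DNA sensors, carried short WT stretches and long cKO ones. Ifi213 was covered over 11.5 and 10.6% in WT and 76.2 and 88.5% in cKO (limma adjusted p = 0.0233), and its longest stretch grew from 3.79 and 3.48 kb to 17.7 and 25.1 kb. Ifi206, which stood outside the list, was covered over 5.79 and 4.44% in WT and 79.3 and 91.4% in cKO (limma adjusted p = 0.0167). Zbp1, a sensor of Z-form nucleic acids that can start necroptosis, was covered over 14.3 and 27% in WT and 77.0 and 87.8% in cKO (limma adjusted p = 0.0479). The IFI200, IFIT, OAS and Schlafen families are sets of similar genes, and reads that match several copies can be placed on the wrong one.

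Other effectors were separated without passing limma. Rsad2 (viperin) was covered over 34.7 and 23.6% in WT and 72.0 and 82.8% in cKO, and Ifit1, which binds foreign RNA caps, over 14.8 and 26.8% in WT and 62.7 and 76.5% in cKO. Usp18, which dampens the interferon receptor, was covered over 32.9 and 37.5% in WT and 65.1 and 82.9% in cKO. Irf9, a transcription factor of the interferon response, was already marked over most of its body in WT, at 76.8 and 82.0%, beside 79.6 and 78.0% in cKO, and the groups overlapped.

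The interferon-stimulated response element is a promoter motif of genes that interferon induces. Its core was searched as GAAANNGAAA on both strands in the RefSeq promoters (GRCm38.p6, 250 bases before to 50 after a start). It occurred in 12.1% of the 231 genes separated higher that had a promoter in the table, in 3.38% of the 947 separated lower and in 4.04% of all 16433 protein-coding genes matched. Of the interferon-stimulated genes tested, 29 of 60 matched carried it (48.3%), and of those separated higher 12 of 22 (54.5%). These 12 were among the 28 genes separated higher with a match. The windows below hold 100 bases upstream of the start of 6 separated interferon genes with a match, those with the widest gap between the genotypes, and capitals mark each match.
Ifi213, chr1:173599291-173599390, minus strand: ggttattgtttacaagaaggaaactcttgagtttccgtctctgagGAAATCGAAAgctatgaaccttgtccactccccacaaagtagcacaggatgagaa
Phf11a, chr14:59297523-59297622, minus strand: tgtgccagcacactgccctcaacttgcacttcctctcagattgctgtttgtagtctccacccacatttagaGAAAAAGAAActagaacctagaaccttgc
Rsad2, chr12:26456518-26456617, minus strand: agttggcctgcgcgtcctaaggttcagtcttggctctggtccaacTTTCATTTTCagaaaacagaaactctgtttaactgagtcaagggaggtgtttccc
Ifit1, chr19:34640759-34640858, plus strand: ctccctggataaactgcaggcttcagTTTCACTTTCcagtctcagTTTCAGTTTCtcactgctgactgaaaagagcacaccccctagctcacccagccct
Ifit3b, chr19:34607758-34607857, plus strand: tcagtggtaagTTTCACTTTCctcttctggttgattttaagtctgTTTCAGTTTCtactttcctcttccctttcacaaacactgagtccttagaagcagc
Oas3, chr5:120777680-120777779, minus strand: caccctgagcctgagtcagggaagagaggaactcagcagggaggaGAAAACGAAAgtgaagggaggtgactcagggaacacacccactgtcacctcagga

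Ifit1 and Ifit3b each held 2 matches in the window, and the other 4 genes held 1. A sterol element core, searched as TCACNCCAC on both strands, occurred in 1 of the 6 matched cholesterol genes that were separated lower and in 1.42% of all genes matched. That gene was Hmgcs1, the synthase that opens the pathway, covered over 78.2 and 87.3% in WT and 22.8 and 60.3% in cKO, and its window is shown with the match in capitals.
Hmgcs1, chr13:119690168-119690267, plus strand: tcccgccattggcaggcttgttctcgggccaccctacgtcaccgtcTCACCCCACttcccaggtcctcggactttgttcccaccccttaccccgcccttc

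**Figure D2:**
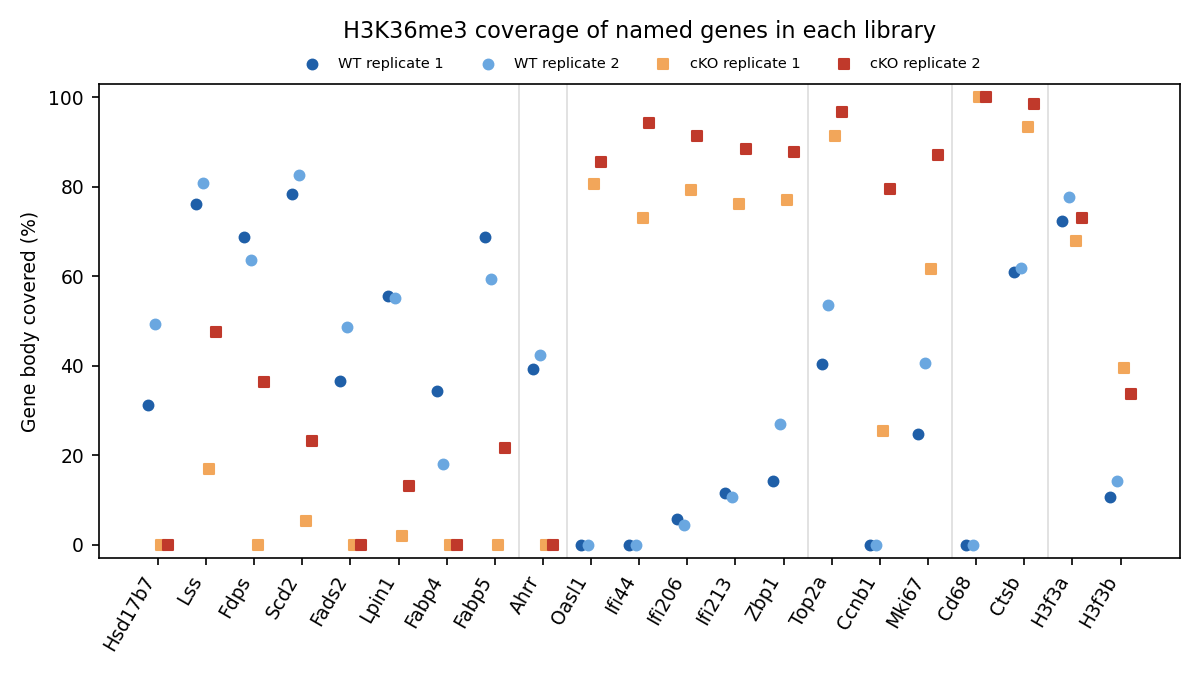
Percent of the gene body covered by H3K36me3 regions (vertical axis) for 21 named genes (horizontal axis) in each of the 4 libraries, WT as circles and cKO as squares. Lipid genes such as Hsd17b7 and Fads2 sit above 30% in WT and below 10% in cKO, and interferon genes such as Oasl1 and Ifi44 sit at 0 in WT and above 70% in cKO.

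The genes with the widest gaps included others outside these pathways. Ms4a4a (chromosome 19, 11375523 to 11392790, plus strand), which encodes a membrane protein of macrophages, was covered over 89.6 and 86.2% in WT and 0 and 2.90% in cKO, a difference of -86.4 ± 15.7 points (SE, limma adjusted p = 0.00884). A stretch of 15.5 kb in WT replicate 1 was absent from cKO replicate 1 and left 0.501 kb in cKO replicate 2. Mxd4, a partner of Max that opposes Myc, was covered over 75.7 and 75.9% in WT and 7.48 and 15.6% in cKO (limma adjusted p = 0.0292). Pla2g7, the secreted phospholipase that inactivates platelet-activating factor, was covered over 54.7 and 56.9% in WT and 1.14 and 3.71% in cKO (limma adjusted p = 0.0219). Calcoco1, a receptor for selective autophagy, was covered over 82.5 and 84.9% in WT and 3.25 and 29.4% in cKO (limma adjusted p = 0.0341). The zinc finger gene Zfp109 and the small genes Klhdc3 and Tmem101 fell from 52.2 to 61.1% in the WT libraries to no region in either cKO library. Tcp11l2, Dnajc27 and Pdcd5 were among the lower genes as well, at 60.3 to 72.8% in WT and 0 to 14.5% in cKO. Ahrr, the repressor of the aryl hydrocarbon receptor, was covered over 39.3 and 42.3% in WT and had no region in either cKO library (limma adjusted p = 0.0219).

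The higher genes with the widest gaps also included several outside the interferon list. Rgs1, a brake on chemokine receptor signalling, had no region in WT and was covered over 79.2 and 92.3% in cKO (limma adjusted p = 0.00884). Klf6, an early response transcription factor, was covered over 0 and 7.12% in WT and 82.7 and 83.4% in cKO (limma adjusted p = 0.0146). Pim1, a kinase induced by cytokines, was covered over 0 and 9.35% in WT and 64.7 and 64.0% in cKO, and Ly6a, a surface antigen that interferon induces, over 0% in both WT libraries and 57.1 and 68.2% in cKO (limma adjusted p = 0.0233 and 0.0172). Irf2bp2, Ier5 and Bbs10 also had no region in WT and were covered over 54.9 to 100% in cKO. For each of these genes both cKO libraries lay far above both WT libraries, as their choice by the widest gap requires.

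**Figure D3:**
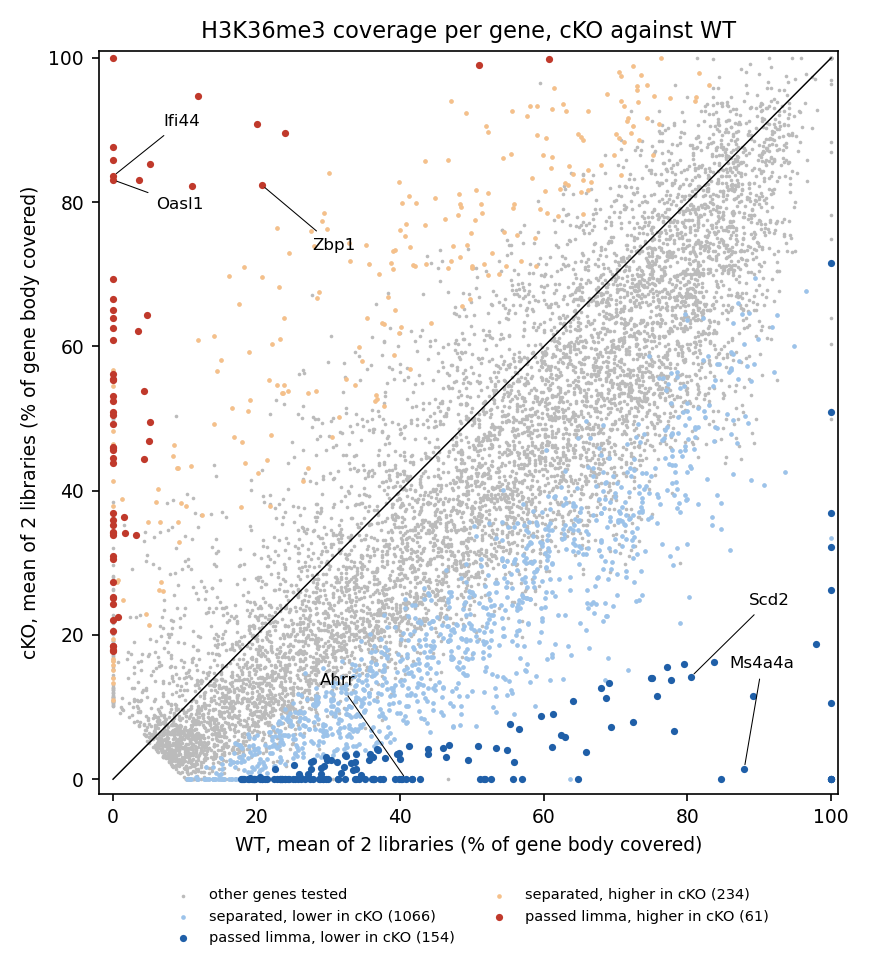
Mean percent of the gene body covered in the 2 cKO libraries (vertical axis) against the 2 WT libraries (horizontal axis), 1 point per gene of 9281, with the diagonal marking equal coverage. The 154 genes that fell and the 61 that rose by limma lie mostly along the edges of the plot, and 77.9% of all points lie below the diagonal.

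Macrophage identity genes and lysosomal genes were separated higher in 27.6 and 24.2% of cases, beside 3.18% of all genes tested. Of the 29 identity genes, 8 were separated higher and 1 lower (27.6 and 3.45%), 2 rose by limma and 1 fell, and the median difference was 6.4 points. Cd68, a lysosomal glycoprotein used as a macrophage marker, had no region in WT and was covered whole in both cKO libraries (limma adjusted p = 0.00357), over a body of only 1.94 kb. Cd14, the co-receptor for lipopolysaccharide, went the other way, at 38.0 and 24.5% in WT and 0% in both cKO libraries (limma adjusted p = 0.0233). Adgre1, which encodes F4/80, was covered over 70.4 and 69.1% in WT and 66.7 and 79.3% in cKO and did not pass the test. Of 33 lysosomal genes, 8 were separated higher and 1 lower, with a median of 5.73 points (-3.20 for cKO replicate 1 and 8.73 for cKO replicate 2). Ctsb, a cysteine protease, was covered over 60.9 and 61.8% in WT and 93.3 and 98.6% in cKO (limma adjusted p = 0.0814). Of 14 proton pump subunits tested, 2 were separated higher and 1 lower. Atp6v0c was covered over 0 and 8.58% in WT and 32.9 and 74.7% in cKO (limma adjusted p = 0.0488), while Atp6v0d2 was covered over 35.7 and 57.1% in WT and 1.09 and 5.14% in cKO (limma adjusted p = 0.0342). With cKO replicate 2 alone, 14 of 29 identity genes and 13 of 33 lysosomal genes lay above WT and 1 of each below.

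Genes of alternative activation were few. Of 6 tested, 2 were separated lower (33.3%, beside 13.1% of all genes tested) and 0 higher. The list as a whole was not lower. Its median difference was 1.18 points against -9.34 over all genes, with 3 members higher in mean and 3 lower. Arg1, the arginase of alternatively activated macrophages, was covered over 31.7 and 31.6% in WT and 5.17 and 6.47% in cKO (limma adjusted p = 0.107). F13a1, the transglutaminase subunit of coagulation factor XIII, was covered over 41.2 and 47.2% in WT and 6.28 and 6.76% in cKO (limma adjusted p = 0.0589), and its covered length went from 75.4 and 86.4 kb to 11.5 and 12.4 kb. The mannose receptor gene Mrc1 was covered over 74.1 and 75.8% in WT and 82.8 and 86.2% in cKO.

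Of 22 inflammatory genes tested, 4 were separated higher and 4 lower (18.2% each, beside 3.18 and 13.1% of all genes tested), and none passed limma. After quantile normalization 7 were separated higher and 2 lower, beside 863 and 826 of all 9281 genes tested. With cKO replicate 2 alone 8 lay above WT and 4 below (36.4 and 18.2%, beside 15.8 and 13.3% of all genes tested). Il10 was covered over 25.5 and 22.1% in WT and 62.9 and 64.9% in cKO (limma adjusted p = 0.209), and Tlr7, the receptor for single-stranded RNA, over 40.8 and 38.9% in WT and 72.4 and 93.2% in cKO (limma adjusted p = 0.208). Ptgs2, which encodes cyclooxygenase 2, was covered over 28.2 and 18.3% in WT and 0 and 6.11% in cKO (limma adjusted p = 0.0977). Il1rn, the interleukin 1 receptor antagonist, was covered over 20.3 and 18.3% in WT and 0 and 3.42% in cKO (limma adjusted p = 0.0821).

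Replication and mitosis genes turned on which cKO library was read. Of 58 tested, 9 were separated higher and 1 lower (15.5 and 1.72%), none passed limma, and the median difference was 12.5 points. The median was -3.10 for cKO replicate 1 and 26.7 for cKO replicate 2, and with cKO replicate 2 alone 45 of the 58 lay above WT and 1 below. Top2a, the topoisomerase of dividing cells, was covered over 40.3 and 53.6% in WT and 91.3 and 96.8% in cKO (limma adjusted p = 0.0800), as 1 stretch of 30.3 kb in cKO replicate 2. Mki67, the proliferation antigen, was covered over 24.8 and 40.7% in WT and 61.7 and 87.2% in cKO (limma adjusted p = 0.251). Ccnb1, the mitotic cyclin, had no region in WT and was covered over 25.5 and 79.5% in cKO (limma adjusted p = 0.132). Plk1, a mitotic kinase, was covered over 31.4 and 30% in WT and 18.4 and 73.5% in cKO, on both sides of WT. In these bulk samples, more cells of a kind and more of the mark per cell cannot be told apart.

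The remaining lists are given beside the 13.1% separated lower and 3.18% separated higher of all genes tested. Their counts with cKO replicate 2 alone stand beside 13.3% of all genes tested below WT and 15.8% above. Nucleotide synthesis had 5 of 35 genes separated lower and 2 higher (14.3 and 5.71%). Its median was -9.48, which was 0.246 after quantile normalization, and with cKO replicate 2 alone 5 lay below WT and 8 above. Impdh1, the enzyme of guanine nucleotide synthesis, was covered over 36.6 and 36.5% in WT and 6.29 and 30.4% in cKO (limma adjusted p = 0.491). DNA damage and repair genes had 5 of 39 separated lower and 1 higher (12.8 and 2.56%) with a median of -10.2. With cKO replicate 2 alone 5 lay each way. Apoptosis genes had 2 of 26 separated each way (7.69% each). Their median was -3.95, which was 3.61 after quantile normalization, and with cKO replicate 2 alone 2 lay below WT and 9 above. Bcl2l11, which encodes the death inducer Bim, was covered over 80.1 and 84.4% in WT and 57.5 and 86.1% in cKO (limma adjusted p = 0.682). Of 23 ELMO, DOCK, Rac and actin genes none was separated in either direction. After quantile normalization 5 were separated higher and 0 lower, beside 863 and 826 of all 9281 genes tested. With cKO replicate 2 alone 8 of the 23 (34.8%) lay above WT and 0 below. Nuclear genes of oxidative phosphorylation had 5 of 79 separated lower and 2 higher (6.33 and 2.53%) with a median of -9.56. With cKO replicate 2 alone 5 lay below WT and 8 above. Ndufa3, a subunit of complex I, fell from 21.6 and 47.5% in WT to 1.15 and 0% in cKO (limma adjusted p = 0.0354). Of 76 cytosolic ribosomal protein genes 5 were separated higher (6.58%) and none lower. Their median was 1.58 and, after quantile normalization, 9.40, and with cKO replicate 2 alone 23 lay above WT and 0 below. None of these lists except oxidative phosphorylation had a member that passed limma.

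The enzymes of the mark and the chaperones of H3.3 were read in the same way. Of 20 genes of H3K36 methylation, 1 was separated lower and 1 higher (5% each, beside 13.1 and 3.18% of all genes tested), and none passed limma. The median was -10.7 (2.85 for cKO replicate 2, with which alone 1 lay below WT and 3 above). Setd2 was covered over 79.3 and 79.0% in WT and 54.9 and 78.8% in cKO (limma adjusted p = 0.671). Kdm4b, a demethylase, was covered over 30.7 and 35.4% in WT and 2.53 and 14.9% in cKO, and Morf4l1, a reader of the mark, over 67.2 and 65% in WT and 78.4 and 84.9% in cKO (limma adjusted p = 0.196 and 0.571). Of 12 chaperone genes, Daxx alone was separated, covered over 58.2 and 66.3% in WT and 79.7 and 83.9% in cKO (limma adjusted p = 0.512), and with cKO replicate 2 alone 5 of the 12 lay above WT and 0 below. Hira was covered over 62.3 and 64.6% in WT and 19.3 and 54.7% in cKO.

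**Figure D4:**
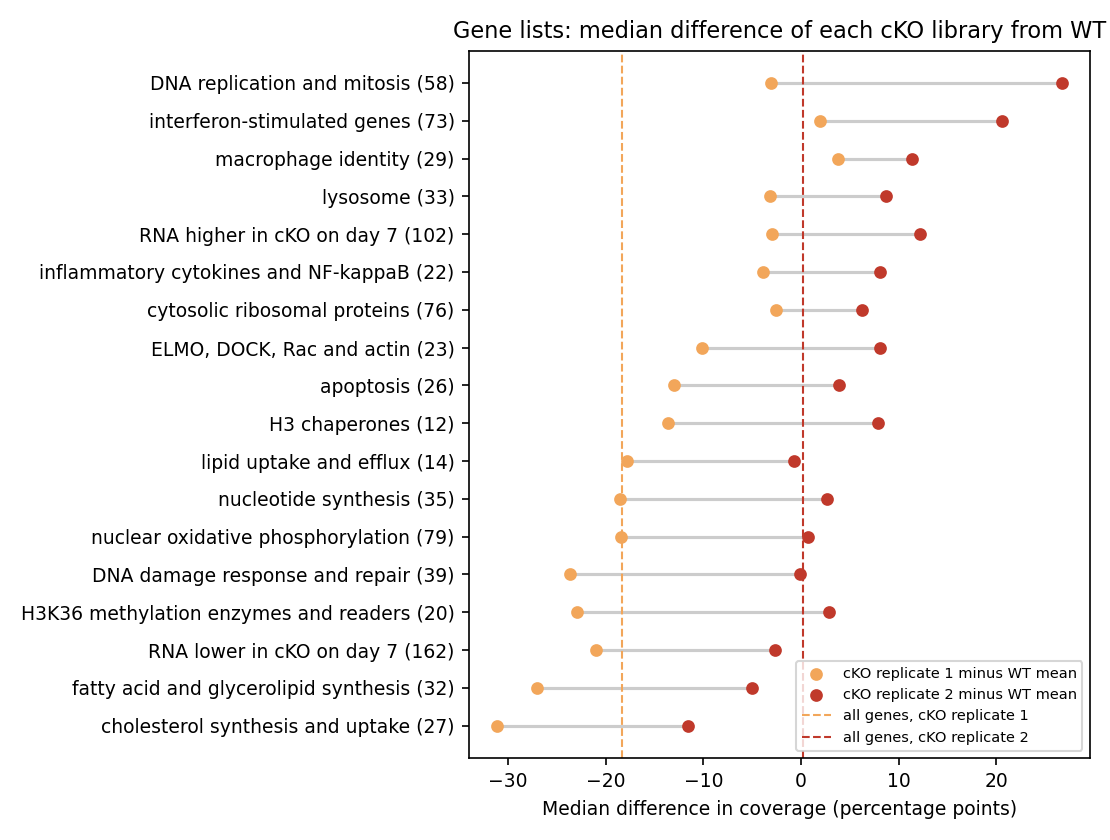
Median difference in coverage from the WT mean (horizontal axis, percentage points) for 18 gene lists with at least 10 genes tested (vertical axis, number tested in brackets), for each cKO library. Dashed lines mark the median of all genes, -18.3 for cKO replicate 1 and 0.242 for cKO replicate 2. Each point of cholesterol synthesis lies to the left of the line of its own library, and each point of interferon-stimulated genes to the right.

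The genes that the study listed as changed in RNA on day 7 of culture were read last, from other libraries of the same design. Of 341 matched genes with higher RNA in cKO, 102 were tested, of which 21 were separated higher and 4 lower (20.6 and 3.92%, beside 3.18 and 13.1% of all genes tested), and 8 rose by limma. With cKO replicate 2 alone 52 of them lay above WT and 5 below, beside 15.8 and 13.3% of all genes. Of 228 matched genes with lower RNA, 162 were tested, of which 52 were separated lower and 6 higher (32.1 and 3.70%), 19 fell by limma and 1 rose. With cKO replicate 2 alone 52 of the 162 lay below WT and 24 above. The medians were 3.74 and -12.9 points for the lists with higher and lower RNA. The gene that rose was Tnfaip8l2, a regulator of immune homeostasis, with no region in WT and 25.5 and 36.3% in cKO (limma adjusted p = 0.0233). Ptgs2, above, was listed with higher RNA and was separated lower. The study chose these lists on the same genotypes, so they are not independent of the direction.

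Shortening was more common than loss. Of the 1220 genes separated lower, 941 (77.1%) still carried a region in both cKO libraries, 177 (14.5%) in 1 of them and 102 (8.36%) in neither. Of the 295 separated higher, 207 (70.2%) carried a region in both WT libraries and 61 (20.7%) in neither, and 183 (62.0%) were covered over at least 50% of the body in both cKO libraries. The longest stretch of a gene separated lower had a median of 5.96 and 5.92 kb in WT and 0.982 and 3.0 kb in cKO, and that of a gene separated higher 1.73 and 1.62 kb in WT and 3.50 and 5.05 kb in cKO. The values of both cKO libraries lay on the same side, as the choice of these genes requires.

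Along the body, coverage increased from the start to the ninth of 10 equal parts in the WT libraries. Over the 8404 genes tested of at least 5 kb, mean coverage in WT was 8.01 and 8.62% in the first part and 67.6 and 69.9% in the ninth. In cKO replicate 2 it was 10.7 and 66.5% in these parts, and in cKO replicate 1 it was 4.93 and 39.9%. The 1115 genes of this length that were separated lower went from 7.66 and 7.77% in the first part to 68.0 and 69.7% in the ninth in WT. In cKO they went from 2.14 and 4.83% to 18.1 and 38.9%. Lower coverage in cKO follows from how these genes were chosen, as higher coverage does for those separated higher. The 189 separated higher had 44.9 and 56.9% in the second part in cKO against 13.4 and 15.2% in WT. In the ninth part they had 75.8 and 86.9% in cKO against 53.6 and 59.0% in WT, which left less room for a gain. How far the position of the gain follows from the choice of these genes was not tested.

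**Figure D5:**
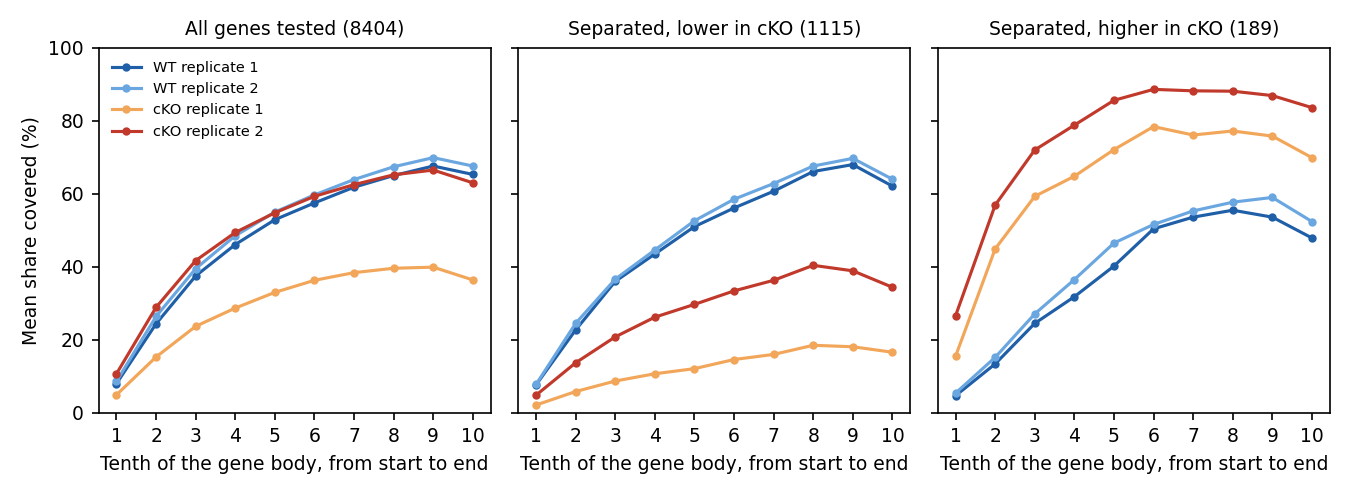
Mean share covered (vertical axis, %) in 10 equal parts of the gene body from start to end (horizontal axis), 1 line per library, for all genes of at least 5 kb, those separated lower and those separated higher. In the right panel the cKO lines reach 44.9 and 56.9% in the second part, where the WT lines are at 13.4 and 15.2%.

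Gene length and chromosome were compared with the direction. The median length was 22.8 kb over all genes tested, 25 kb for those separated lower and 8.02 kb for those separated higher. In the shortest 1857 genes (up to 8.69 kb) 8.35% were separated higher, and in the longest 1856 (from 58.3 kb) 0.485%. The share separated lower ranged from 12.2 to 14.2% over 5 such classes of length. On chromosome X, 6 of 238 genes were separated lower (2.52%) and 15 higher (6.30%), where the shares on the autosomes ranged from 7.37 to 19% and from 1.23 to 5.08%. The median difference on X was -3.25 points.

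H3.3-HA and acetylation of lysine 27 (H3K27ac), profiled in the same series, were set beside these genes. In the H3.3-HA libraries, whose cells carried an HA tag at H3f3b, regions covered a median of 5.38 and 7.12% of all genes tested, 2.78 and 3.52% of those separated lower and 15 and 23.1% of those separated higher. For H3K27ac the medians of the genes separated lower were 6.39 and 4.71% in WT and 2.58 and 4.63% in cKO, and those of the genes separated higher 28.8 and 22.7% in WT and 28.5 and 39.0% in cKO. Over all genes they were 12.3 and 9.39% in WT and 6.39 and 9.74% in cKO. The genes separated higher were also shorter, and the part of length in these percents was not tested. The H3K27ac and H3K36me3 libraries of a genotype were called against the same IgG directory, which differed between the genotypes, so their differences share controls. At Oasl1, H3K27ac regions covered 0% in both WT libraries and 23.9 and 24.2% in cKO, and at Fads2 1.29 and 4.57% in WT and 0% in both cKO libraries. At Klf6 they covered 90.4 and 82.7% in WT and 89.9 and 65.1% in cKO, and at Rgs1 66.8 and 48.1% in WT and 70.3 and 52.4% in cKO, while H3K36me3 rose at both genes.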

How the data were processed

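CUT&RUN libraries were prepared and sequenced by the authors, and the submitters' processing notes name cutadapt, Bowtie, HOMER, deepTools and the build mm10. Per the file headers, the authors called regions with HOMER in histone mode for each library separately, with peaks of 500 bp kept 1000 bp apart, at least 4-fold over the IgG control and Poisson p-values of 1e-03 and, over the control, 1e-04. The deposited lists hold, for every region, its bounds in bp (start and end) and a constant score, so no height was available and a region missed by the caller can differ little in signal. The depth, 14027132 to 23782914 tags, was read from the headers. Groups and replicate numbers came from the labels.

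Regions on chromosomes 1 to 19 and X were merged and intersected with the bodies of protein-coding genes of GENCODE M21 (the same build). Genes with a mean coverage of at least 5% were tested with limma 3.58.1 in R 4.3.3 (trend and robust options, two-sided, Benjamini-Hochberg over 9281 genes). A run on simulated data came first, with noise drawn from the WT pair alone. That run does not show how limma behaves with the wider spread of the cKO pair. The study's own test used read counts, which the lists do not hold. Values per library were compared with an exact permutation test. Separated genes needed a gap of 10 points. Members and gene lists were chosen with earlier results of these data known; the RNA lists were the symbols of the study's tables for day 7. Named genes were the 12 lower and 12 higher genes with the widest gap that passed limma and were separated, with a body of at least 3 kb, at most 50% of it inside other coding genes and no model name, then a fixed set and up to 4 separated genes per list and direction. Some genes of this rule are not reported here. Genes outside this rule were named after their values were seen, as members of a list or to fill a step of its pathway. Figures were drawn with matplotlib 3.10.9. Alternatives were other scalings, filters, region widths and gaps, an arcsine scale, the replicate number as a block and each library left out; quantile normalization was chosen after seeing the data.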

Additional observations from a re-analysis of the deposited data

How the results depend on the processing

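The counts of genes past limma were 154 lower and 61 higher. They were 0 and 0 under median-ratio scaling (1154 and 611 at an unadjusted p under 0.05), lists of equal covered length (415 and 436), regions of at least 1 kb (776 and 181), bridging gaps of 3 kb (1011 and 245) and no filter on coverage (1186 and 226). They were 110 and 235 after quantile normalization, 75 and 51 with a mean coverage of at least 20%, 64 and 35 outside other coding genes, and 60 and 42 on the arcsine scale. With the replicate block they were 289 and 145, but the replicate numbers did not pair the libraries (r = 0.0435 between the WT and cKO differences of replicate 1 and 2, over genes). With 1 library left out they ranged from 0 to 4555 lower and from 0 to 194 higher: both were 0 without WT replicate 1 (271 and 18 unadjusted), WT replicate 2 (211 and 25) or cKO replicate 1 (1085 and 1359), and 4555 and 194 without cKO replicate 2. The lone library of a group was then assumed to vary like the other pair.

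The genes separated were 1220 lower and 295 higher. They were 927 and 880 under median-ratio scaling, 826 and 863 after quantile normalization, 677 and 618 with lists of equal covered length, 187 and 87 with a gap of 25 points and 3743 and 802 with any gap. With 1 library left out they ranged from 1231 to 5872 lower and from 291 to 1475 higher: 1816 and 360 without WT replicate 1, 1500 and 454 without WT replicate 2, 1231 and 1475 without cKO replicate 1, and 5872 and 291 without cKO replicate 2. Higher genes made up 19.5% of those separated, 48.7% under median-ratio scaling, 51.1% after quantile normalization and 54.5% without cKO replicate 1, and 28.4% of limma calls against 68.1% after quantile normalization. The median gene moved from -9.34 points to between -18.54 and 0.16, and the cause of these shifts was not tested. No named gene changed direction in an alternative in which it was called. The median of cholesterol synthesis lay between -31.11 and -11.62 points and that of fatty acid synthesis between -27.13 and -4.94 in the 12 alternatives run on lists, whereas that of replication genes was -3.14 without cKO replicate 2 and 8.76 to 29.42 otherwise. Regions without height and 2 libraries a group limit the precision.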
